A study of Homo sapiens with 66 samples.

Results

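PAX2, PAX3, PAX5, PAX6, PAX7 and PAX8 are the paired box genes of the developing neural tube, and their RNA was followed here along the route that leads from human embryonic stem cells through neuromesodermal progenitors and expandable spinal cord progenitors to motor neuron cultures. The members are the rows of these 6 genes in both deposited tables of read counts, found by versioned Ensembl identifier and mapped to symbols, out of 60603 gene identifiers in all. Every member was found in both tables. All 6 passed the filter on low counts in the table that ends with the progenitors, and 5 passed it in the table of motor neuron cultures, where PAX8 did not.

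The study sequenced bulk RNA of the established H9 human embryonic stem cell line, labelled wild type (WT), in 66 libraries that fall into 22 groups of 3. The groups are undifferentiated cells (hESC), days 1 to 4 of the hNMP step (hNMP-D1 to hNMP-D4), days 1 to 6 of neural determination (NeuDet-D1 to NeuDet-D6), spinal cord neural progenitors (hSCNPC) sampled at passages 5, 10, 20, 30 and 40 and named P5 to P40, and days 6, 12, 18, 24, 30 and 42 of motor neuron differentiation (hMN-D6 to hMN-D42). After a day in mTeSR1, the hNMP medium held FGF-2, the WNT pathway activator CHIR99021 and the receptor inhibitors SB431542 and Dorsomorphin, which act on TGF-beta and BMP signalling. The NeuDet medium added FGF-8 and Compound E, an inhibitor of the protease that releases active Notch. The hSCNPC medium held SB431542, CHIR99021 and Purmorphamine, which activates the Hedgehog pathway, and the motor neuron medium held Purmorphamine, Compound E, BDNF, GDNF and NT-3. All groups are stages of this 1 cell line. The labels number the libraries of a group without saying whether they came from separate cultures, so p-values measure the spread between these libraries, which may be technical. No library is labelled as day 0 of the motor neuron step and the passage that entered it is not given. hMN-D6 was therefore set against hSCNPC-P10, a comparison in which the stage and the separate count table cannot be told apart.

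PAX proteins are transcription factors that bind DNA through the paired domain, and they sit early in the programmes that divide the neural tube into regions and cell types. PAX3 and PAX7 form a subgroup that marks dorsal progenitors of the spinal cord, with further roles in neural crest and skeletal muscle. PAX6 is used by progenitors along the intermediate and lateral wall of the tube, where its level helps to place the boundaries between progenitor domains. PAX2, PAX5 and PAX8 form another subgroup, known from the midbrain-hindbrain boundary and, for PAX2 and PAX8, from the kidney and from inhibitory interneurons of the spinal cord, while PAX5 also directs B-lymphocyte development.

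In GRCh38 coordinates, PAX2 (ENSG00000075891.21) lies on the plus strand at chr10:100735396-100829944, PAX5 (ENSG00000196092.14) on the minus strand at chr9:36833269-37034268 and PAX8 (ENSG00000125618.17) on the minus strand at chr2:113215997-113278921. PAX3 (ENSG00000135903.19) lies on the minus strand at chr2:222199887-222298998 and PAX7 (ENSG00000009709.12) on the plus strand at chr1:18630846-18748866. PAX6 (ENSG00000007372.23) lies on the minus strand at chr11:31784779-31817961. All are protein-coding genes. Exons of opposite-strand genes overlap 26.3% of the exon bases of PAX6 (mainly ELP4, and the long noncoding RNA PAUPAR) and 22.4% of those of PAX8 (PAX8-AS1). Neither the labels nor the methods state whether counting used strand, so reads over those bases cannot be assigned to 1 partner with certainty.

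The promoters of the members with a single annotated start are shown because PAX3 and PAX7, and likewise PAX5 and PAX8, are subgroup partners whose levels are compared throughout. Each window holds the 250 bases before the RefSeq transcription start (GRCh38.p14), written 5′ to 3′ in the direction of transcription, with matches to CCAAT (or ATTGG on the other strand) and to TATAAA in capitals. The windows are chr2:222298999-222299248 (minus strand) for PAX3, chr1:18630596-18630845 (plus strand) for PAX7, chr9:37034269-37034518 (minus strand) for PAX5 and chr2:113278922-113279171 (minus strand) for PAX8.
PAX3: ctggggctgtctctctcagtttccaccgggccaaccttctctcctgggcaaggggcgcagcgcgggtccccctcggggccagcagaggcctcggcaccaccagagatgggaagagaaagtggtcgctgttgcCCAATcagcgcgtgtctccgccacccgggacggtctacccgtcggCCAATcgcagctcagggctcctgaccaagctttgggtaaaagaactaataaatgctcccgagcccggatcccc
PAX7: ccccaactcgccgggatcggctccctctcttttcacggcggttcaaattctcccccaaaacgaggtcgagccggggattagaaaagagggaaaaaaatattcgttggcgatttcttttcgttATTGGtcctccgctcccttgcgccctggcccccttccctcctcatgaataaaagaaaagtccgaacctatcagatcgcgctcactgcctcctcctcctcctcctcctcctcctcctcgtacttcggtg
PAX5: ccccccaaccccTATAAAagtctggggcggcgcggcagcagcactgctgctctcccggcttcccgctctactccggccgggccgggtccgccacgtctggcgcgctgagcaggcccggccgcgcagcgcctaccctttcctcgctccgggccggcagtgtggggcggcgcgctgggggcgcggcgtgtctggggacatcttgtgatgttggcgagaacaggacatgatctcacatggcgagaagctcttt
PAX8: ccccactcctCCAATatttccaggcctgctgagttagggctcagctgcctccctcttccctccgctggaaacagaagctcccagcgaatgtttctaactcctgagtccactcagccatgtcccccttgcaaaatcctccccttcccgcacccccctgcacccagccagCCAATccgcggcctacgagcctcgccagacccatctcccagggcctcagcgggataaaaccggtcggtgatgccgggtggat
CCAAT, on either strand, was matched 2 times in the PAX3 window, 1 time in that of PAX7 and 2 times in that of PAX8, and it was present in 32.0% of 35116 RefSeq promoter windows of the same length. TATAAA was matched 1 time, in the PAX5 window, against 10.7% of all windows. No window of any member start site held CTTTGA (a core of TCF/LEF sites, in 11.2% of all windows) or TTTATG (a core of CDX sites, in 9.64%). These matches describe letters in the windows and do not show binding. PAX2 has 2 and PAX6 has 9 annotated start sites in RefSeq, and counts per gene do not tell which start was used, so their windows are not printed.

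Total counts ran from 14142238 to 40204753 per library, with a median of 20676228, and no pair of libraries within a group was identical. Marker lists followed the stage labels in part. Summed levels in CPM (reads of a gene scaled to the size of its library) of 6 pluripotency genes were 3503 to 3670 in hESC libraries and 249.4 to 277.0 in NeuDet-D6 libraries. A list of 7 neuromesodermal genes stood at 250 to 499.9 CPM in hNMP-D4, at 1363 to 1506 CPM in NeuDet-D6 and at 3.28 to 4.14 CPM in hSCNPC-P5, where TBXT and CDX1 had no reads. Neural progenitor markers summed to 5699 to 6053 CPM in hSCNPC-P5, against 1443 to 1522 CPM in NeuDet-D6, where HES5 was at 0. The motor neuron list stood at 73.8 to 75.7 CPM in hMN-D6, against 9.42 to 11.2 CPM in hSCNPC-P10. Of its 8 genes 7 were called higher, where 75.2% of all genes tested were called in either direction. In hMN-D6 the defining genes MNX1 and ISL1 averaged 3.64 and 6.05 CPM, against 1.43 and 0.359 CPM in hSCNPC-P10.

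The members had their highest levels at different stages. Values below are CPM after TMM scaling, given for libraries 1, 2 and 3 of a group, and in bulk RNA fewer cells of a type and less RNA per cell cannot be told apart. PAX2 was highest at NeuDet-D6 (140.6 ± 9.93 CPM, SD, n = 3). PAX6 was highest at P10 (533.2 ± 13.9 CPM) and nearly as high at P20 and P5. PAX3 and PAX7 were highest in late passages, PAX3 at P20 (330.7 ± 5.93 CPM) and PAX7 at P40 (119.8 ± 2.41 CPM). PAX5 and PAX8 peaked with PAX2 at NeuDet-D6, at 14.7 ± 1.86 and 14.3 ± 1.56 CPM.

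**Figure D1:**
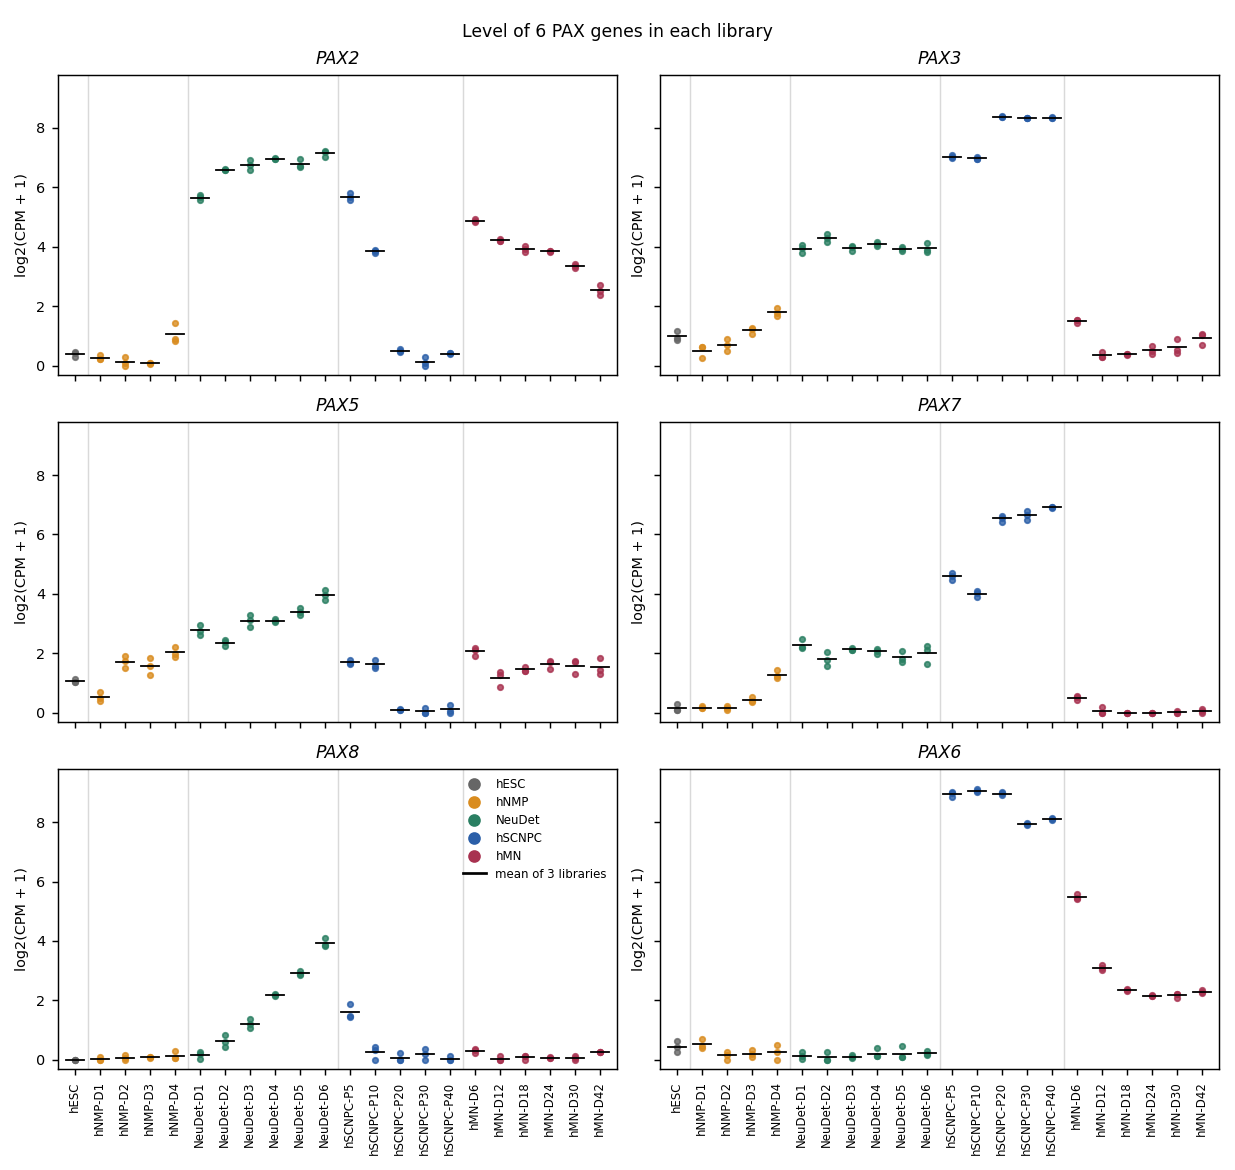
Level of each member in every library, as log2(CPM + 1) on the vertical axis of each panel, over the 22 groups in the order of the protocol on the horizontal axis, with 1 point per library. PAX2, PAX5 and PAX8 reach their highest means at NeuDet-D6 (140.6, 14.7 and 14.3 CPM), PAX6 is near 0 until hSCNPC-P5 (494.7 CPM), and PAX3 and PAX7 are highest from P20 to P40.

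The order of the groups shows which neighbours differed beyond the spread of their libraries. In PAX8 the 6 groups with the highest means were NeuDet-D6, NeuDet-D5, NeuDet-D4, hSCNPC-P5, NeuDet-D3 and NeuDet-D2, and the libraries of each group did not overlap those of the next. Below them, from hMN-D6 at 0.236 CPM down to hESC at 0, each group overlapped its neighbour. In PAX2 the NeuDet-D6 libraries lay above those of NeuDet-D4, while NeuDet-D4, NeuDet-D5, NeuDet-D3 and NeuDet-D2 overlapped in sequence, and NeuDet-D1 overlapped hSCNPC-P5. In PAX5 NeuDet-D6 and NeuDet-D5 each stood clear of the next group, whereas the 10 groups from hMN-D6 to hMN-D18, between 3.21 and 1.74 CPM, each overlapped the next.

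PAX3 and PAX6 had broader plateaus. The PAX3 libraries of P40 (319.8 to 329.5 CPM) overlapped those of P20 (326.5 to 337.5 CPM) and of P30 (320.3 to 323.6 CPM), which did not overlap each other, and those of P5 and P10 overlapped at 122.2 to 135.7 CPM, with a gap below the later passages. The P20 and P5 libraries of PAX6 overlapped, below P10 and above P40, which in turn lay above P30. In PAX7 each passage stood apart except P30, which overlapped P20.

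The first comparison asks which members had changed by the end of the hNMP step. At hNMP-D4, 5 of the 6 members were called higher than in hESC and none lower, where 54.3% of all genes tested were called in either direction (edgeR quasi-likelihood F test, Benjamini-Hochberg adjusted p under 0.05). The levels remained low. PAX7 had 1.68, 1.22 and 1.35 CPM in hNMP-D4 libraries, against 0.0551, 0.212 and 0.0626 CPM in hESC libraries (log2 fold change 3.58 ± 0.44 SE, adjusted p 5.69e-10 by edgeR). PAX2 had 1.73, 0.795 and 0.883 CPM in hNMP-D4, against 0.330, 0.212 and 0.375 CPM in hESC (log2 fold change 1.88 ± 0.37, edgeR adjusted p 2.14e-05). In both genes the ranges did not overlap, and the first hNMP-D4 library was the highest.

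PAX3 had 2.21, 2.86 and 2.40 CPM in hNMP-D4, against 0.826, 0.901 and 1.25 CPM in hESC, and rose by 1.34 ± 0.21 on the log2 scale (edgeR adjusted p 1.82e-07). PAX5 had 3.68, 2.97 and 2.69 CPM in hNMP-D4, against 1.05, 1.06 and 1.19 CPM in hESC, and rose 2.83-fold (SE 0.23 on the log2 scale, edgeR adjusted p 2.31e-07). The PAX5 level was already 2.74, 1.81 and 2.35 CPM at hNMP-D2, against 0.411, 0.328 and 0.633 CPM at hNMP-D1. PAX8 had 6 reads over the hNMP-D4 libraries and 0 over the hESC libraries, at least 1.81-fold higher against a floor of 3 counts per group, with an edgeR adjusted p of 0.0397. That call was lost without any 1 of the hESC libraries (adjusted p 0.0774 to 0.0899) and without hNMP-D4 library 2 (0.178). PAX6, the progenitor gene, was not called at 0, 0.424 and 0.210 CPM in hNMP-D4, against 0.330, 0.530 and 0.188 CPM in hESC (adjusted p 0.342).

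Dorsal genes moved in the same comparison: of 15 tested dorsal spinal progenitor genes 11 were higher and 2 lower at hNMP-D4, among them OLIG3, a factor of the most dorsal interneuron progenitors, at a log2 fold change of 6.95. The list's median was 2.01, against 0.01 over all genes. Of 13 intermediate and ventral genes 4 were higher and 2 lower, including FOXA2, the floor plate factor, at 6.62. Neural crest markers moved both ways, with 6 of 11 higher and 4 lower at hNMP-D4, and their part in the result was not tested.

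Among the 10 comparisons PAX2 had its largest fold between NeuDet-D1 and hNMP-D4. At NeuDet-D1, 4 of the 6 members were higher than at hNMP-D4 and none lower (56.0% of all genes were called). PAX2 had 50.2, 46.2 and 52.1 CPM in NeuDet-D1 libraries, against 1.73, 0.795 and 0.883 CPM in hNMP-D4 libraries, a 43.1-fold difference (log2 fold change 5.43 ± 0.14, edgeR adjusted p 3.26e-35). PAX3 had 15.7, 12.8 and 14.5 CPM in NeuDet-D1, against 2.21, 2.86 and 2.40 CPM in hNMP-D4 (2.50 ± 0.12, edgeR adjusted p 3.74e-25). Both sets of libraries were separated by wide gaps.

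PAX7 was also higher, at 3.68, 3.49 and 4.58 CPM in NeuDet-D1 against 1.68, 1.22 and 1.35 CPM in hNMP-D4 (1.43 ± 0.18, edgeR adjusted p 2.11e-09). PAX5 had 5.08, 5.76 and 6.72 CPM in NeuDet-D1 against 3.68, 2.97 and 2.69 CPM in hNMP-D4 (0.88 ± 0.18, edgeR adjusted p 2.54e-05). PAX6 was not called at 0.0259, 0.0919 and 0.195 CPM in NeuDet-D1, with an edgeR adjusted p of 0.219, and PAX8 was not called with an adjusted p of 0.825. The dorsal list did not move one way here, with 4 genes higher and 7 lower of 15. MSX1, a roof plate and dorsal midline gene, was higher by 4.89 on the log2 scale, and 6 of 7 neuromesodermal genes were higher as well.

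Within the NeuDet stage all of PAX2, PAX5 and PAX8 were higher on day 6 than on day 1, and PAX3 and PAX7 were not. Between NeuDet-D6 and NeuDet-D1 4 of 6 members were called, 3 higher and 1 lower (54.6% of all genes). PAX8 had the largest fold: its libraries had 13.6, 13.3 and 16.1 CPM at NeuDet-D6, against 0.0259, 0.153 and 0.195 CPM at NeuDet-D1 (log2 fold change 6.83 ± 0.36, 114-fold, edgeR adjusted p 1.09e-21). Day by day its mean was 0.125, 0.544, 1.32, 3.56, 6.56 and 14.3 CPM, and no library of a day overlapped the next day's. PAX8 is known from the thyroid and, like PAX2, from the kidney and spinal inhibitory interneurons.

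PAX2 had 129.4, 148.4 and 144.0 CPM at NeuDet-D6, against 50.2, 46.2 and 52.1 CPM at NeuDet-D1 (1.48 ± 0.09, edgeR adjusted p 1.64e-21). Its mean at days 1 to 6 was 49.5, 95.6, 107.8, 124.6, 109.2 and 140.6 CPM, with day 5 below day 4. PAX5 had 12.8, 14.7 and 16.5 CPM at NeuDet-D6, against 5.08, 5.76 and 6.72 CPM at NeuDet-D1 (1.30 ± 0.15, edgeR adjusted p 2.87e-10), with its lowest NeuDet mean at day 2 (4.14 CPM). The mean of PAX8 was thus higher on every day than on the day before, while that of PAX2 and PAX5 was not.

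PAX3 stayed between 12.8 and 20.4 CPM in all 18 NeuDet libraries and was not called between NeuDet-D6 and NeuDet-D1 (log2 fold change -0.02 ± 0.08, edgeR adjusted p 0.893). PAX7 was called lower, at 2.09, 3.79 and 3.32 CPM in NeuDet-D6 against 3.68, 3.49 and 4.58 CPM in NeuDet-D1 (-0.38 ± 0.14, adjusted p 0.0226), with overlapping libraries. Without NeuDet-D6 library 1 its adjusted p was 0.532, without NeuDet-D1 library 3 it was 0.186, and in a fit of both groups alone it was 0.149. PAX6 remained at 0 to 0.362 CPM in every NeuDet library and was not called (adjusted p 0.530). By RT-qPCR, a relative measure normalized to GAPDH, the study reported PAX6 among genes upregulated during this stage. The difference between the 2 measures was not tested.

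Genes of the midbrain-hindbrain boundary, where PAX2, PAX5 and PAX8 are known partners, were counted as a list. Of 8 tested, 6 were higher and 1 lower at NeuDet-D6 than at NeuDet-D1, with a median log2 fold change of 2.51 against -0.01 over all genes. FGF8, a signal of that boundary, was higher by 7.11 ± 0.30, and EN1, a homeobox gene of the same region, by 4.82 ± 0.40 (edgeR adjusted p 1.63e-27 and 6.13e-14). The part of these genes in the PAX2, PAX5 and PAX8 result was not tested. WNT1, the partner signal at the boundary, had no reads at NeuDet-D6. FGF17, which stands in both the boundary list and the neuromesodermal list, averaged 299.0 CPM at NeuDet-D6 and 33.1 CPM at NeuDet-D1. Kidney markers summed to 552.5 to 680.4 CPM at NeuDet-D6, of which SALL1, a gene that neural cells also express, had a mean of 614.9 CPM, while WT1 and LHX1 were at 0 there, and 1 of 5 tested kidney genes was higher and 3 were lower than at NeuDet-D1.

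All members changed between the last NeuDet day and the first sequenced passage of the progenitors. Of 6 members, 3 were higher and 3 lower in hSCNPC-P5 than in NeuDet-D6 (59.4% of all genes were called). PAX6 had 460.3, 508.1 and 515.7 CPM in hSCNPC-P5 libraries, against 0.112, 0.131 and 0.234 CPM in NeuDet-D6 libraries, where only 4, 5 and 6 reads were counted (log2 fold change 11.64 ± 0.19, edgeR adjusted p 1.75e-39). PAX6 is a central regulator of neural progenitors, and its reads numbered 66 over all 18 NeuDet libraries and 111036 over the 15 hSCNPC libraries. PAX3 had 125.1, 135.7 and 128.3 CPM in hSCNPC-P5 against 13.9, 13.1 and 16.6 CPM in NeuDet-D6 (3.18 ± 0.08, edgeR adjusted p 3.40e-38). PAX7 had 21.2, 25.2 and 23.0 CPM in hSCNPC-P5 against 2.09, 3.79 and 3.32 CPM in NeuDet-D6 (2.93 ± 0.13, edgeR adjusted p 4.12e-27).

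The other subgroup moved the opposite way. PAX2 had 47.1, 54.9 and 49.6 CPM in hSCNPC-P5 against 129.4, 148.4 and 144.0 CPM in NeuDet-D6, 2.76-fold lower (edgeR adjusted p 4.01e-21). PAX5 had 2.13, 2.42 and 2.16 CPM in hSCNPC-P5 against 12.8, 14.7 and 16.5 CPM in NeuDet-D6, 6.47-fold lower (edgeR adjusted p 7.84e-19). PAX8 had 1.78, 1.73 and 2.64 CPM in hSCNPC-P5 against 13.6, 13.3 and 16.1 CPM in NeuDet-D6, 6.89-fold lower (edgeR adjusted p 5.25e-13). For none of the 6 members did the libraries of both groups overlap, but the share of all genes without overlap was not computed, so this does not set the members apart.

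Lists of positional genes were counted in the same comparison. Of 13 intermediate and ventral genes 10 were higher and none lower in hSCNPC-P5 (median log2 fold change 3.79, against -0.02 over all genes), led by the intermediate progenitor genes DBX1 (14.40) and DBX2 (10.25), whose domain lies near the boundary of PAX7, and by the Iroquois homeobox gene IRX5 (5.54). Of 15 dorsal genes 4 were higher and 10 lower, among them the dorsal signal BMP4 (-3.67). The boundary list had 7 of 8 genes lower and none higher, FGF17 with a log2 fold change of -7.06 and FGF8 of -6.67. Neural progenitor and neuron lists were higher in all 8 genes each.

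**Figure D2:**
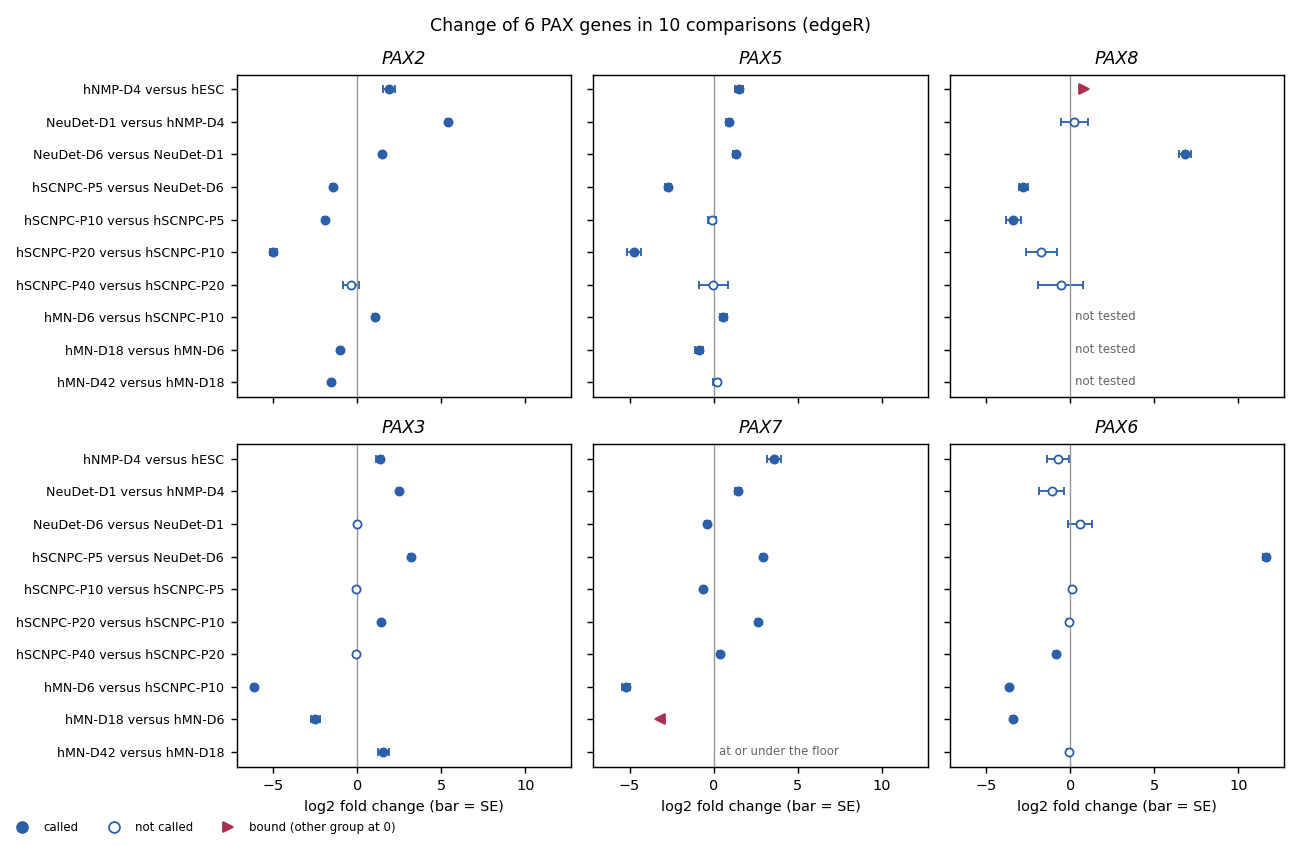
Log2 fold change of each member in the 10 comparisons is on the horizontal axis (bars are ± 1 SE of the edgeR estimate). The vertical axis names each comparison as the later stage versus the earlier one. Filled points are called, open points are not, and triangles mark bounds against a group without reads. The PAX6 step between hSCNPC-P5 and NeuDet-D6 (11.64) exceeds every other estimate shown, and neighbouring comparisons share the libraries of 1 group.

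Passaging separated the members again. Between hSCNPC-P10 and hSCNPC-P5 3 of 6 members were lower and none higher (16.4% of all genes were called). PAX2 had 13.4, 12.9 and 14.0 CPM at P10, against 47.1, 54.9 and 49.6 CPM at P5 (-1.91 ± 0.10, edgeR adjusted p 8.69e-22). PAX8 had 0.259, 0.333 and 0 CPM at P10, against 1.78, 1.73 and 2.64 CPM at P5, 10.46-fold lower (adjusted p 9.25e-08). PAX7 had 15.2, 14.0 and 16.3 CPM at P10, against 21.2, 25.2 and 23.0 CPM at P5 (-0.61 ± 0.11, adjusted p 3.71e-05). PAX3, PAX5 and PAX6 were not called (edgeR adjusted p 0.709, 0.853 and 0.517), although the PAX6 libraries did not overlap.

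Between hSCNPC-P20 and hSCNPC-P10 2 members were higher, 2 were lower and 2 were not called (25.5% of all genes were called). The dorsal pair was higher. PAX3 had 337.5, 326.5 and 328.1 CPM at P20, against 130.2, 122.2 and 123.0 CPM at P10 (1.42 ± 0.07, 2.68-fold, edgeR adjusted p 1.05e-23). PAX7 had 98.3, 94.0 and 84.8 CPM at P20, against 15.2, 14.0 and 16.3 CPM at P10 (2.63 ± 0.11, 6.17-fold, edgeR adjusted p 7.64e-27). The ratio of PAX3 to PAX7 per kilobase of exon was 2.80 to 3.15 in the P20 libraries, against 6.16 to 7.12 in the P10 libraries, and no library of either group fell in the range of the other.

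PAX2 and PAX5 were nearly lost at P20. PAX2 had 0.488, 0.392 and 0.365 CPM at P20, against 13.4, 12.9 and 14.0 CPM at P10, 31.5-fold lower (-4.98 ± 0.21, edgeR adjusted p 1.55e-26). PAX5 had 4 reads over the P20 libraries, with 0.0542, 0.0979 and 0.0609 CPM, against 1.86, 2.00 and 2.44 CPM at P10, 26.6-fold lower (adjusted p 1.25e-13). PAX6 was not called, at 514.6, 502.2 and 476.1 CPM at P20 against 548.4, 521.0 and 530.2 CPM at P10 (adjusted p 0.604), and PAX8 was not called on 3 reads at P20 (adjusted p 0.195, and 0.0244 without P20 library 1, which held all of them).

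The dorsal list moved with PAX3 and PAX7 at this step, with 10 of 15 genes higher and 4 lower (median log2 fold change 0.76, against 0.00 over all genes). GSX2, a dorsal progenitor homeobox gene, was higher by 6.23, and LMX1B, a homeobox gene of dorsal neurons, by 3.87. Of 13 intermediate and ventral genes 2 were higher and 8 lower, among them OLIG2, the motor neuron progenitor factor, and the ventral homeobox gene NKX2-8. Both had no reads at P20, so their edgeR estimates (-8.29 and -8.56) do not measure the size of the change. Of 9 tested genes of the PAX2 lineage of inhibitory interneurons 1 was higher and 7 were lower, among them the vesicular transporter SLC32A1 (-5.05) and the glycine transporter SLC6A5 (-3.21). The 1 higher gene was BHLHE22, which averaged 97.4 CPM at P20 and 32.1 CPM at P10, and with it the summed level of the list was 108.3 to 117.7 CPM at P20, against 75.9 to 78.3 CPM at P10.

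The late passages were compared next. Between hSCNPC-P40 and hSCNPC-P20 1 member was higher, 1 was lower and 4 were not called (39.8% of all genes were called). PAX7 had 121.1, 121.4 and 117.1 CPM at P40, against 98.3, 94.0 and 84.8 CPM at P20 (0.36 ± 0.09, edgeR adjusted p 0.00156). PAX6 had 282.7, 277.3 and 266.1 CPM at P40, against 514.6, 502.2 and 476.1 CPM at P20 (-0.87 ± 0.09, 1.82-fold lower, edgeR adjusted p 3.40e-10), with P30 at 249.1, 239.5 and 241.9 CPM. PAX3 was not called, at 329.5, 319.8 and 322.5 CPM at P40 (adjusted p 0.667). PAX2 was not called on 18 reads at P40 and 23 at P20 (adjusted p 0.553), nor were PAX5 on 4 reads in each group and PAX8 on 2 reads at P40 and 3 at P20 (edgeR adjusted p 1.0 and 0.793). The PAX3 to PAX7 ratio per kilobase was 2.15 to 2.25 at P40, below the 2.80 to 3.15 of P20.

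Of the ventral and intermediate list 9 of 13 genes were lower and none higher at P40 than at P20, led by DBX1 (-9.14) and DBX2 (-4.79), while 9 of 15 dorsal genes were higher and 3 lower, among them ZIC4 (4.17), ZIC1 (3.59) and GSX1 (2.18). DBX1 averaged 334.1, 682.1, 23.0 and 0.0448 CPM at P5, P10, P20 and P40, and GSX1 averaged 3.85, 5.75, 32.4 and 148.0 CPM. Neuron markers were lower at P40 in 7 of 8 genes. A list of 11 paraxial mesoderm and muscle genes summed to 16.1 to 21.5 CPM at P40, against 8.95 to 13.3 CPM at P20, and most of this was UNCX, a homeobox gene of the somites, which averaged 17.4 CPM at P40 and 8.86 CPM at P20 and was called higher (log2 fold change 0.96, edgeR adjusted p 3.83e-05). Of 8 tested genes of this list 1 was higher and 1, MEOX1, was lower. The muscle regulators were at or near 0: MYF5 and MYOG had no reads at P20 or P40, and MYOD1 had 1 read in each. The part of these genes in the PAX7 result was not tested. The neural crest list, the other known home of PAX3, summed to 87.8 to 92.1 CPM at P40, 79.3 to 88.2 CPM at P20 and 31.4 to 32.7 CPM at P10, while the crest gene SOX10 averaged 0.158, 0.222 and 0.279 CPM at P40, P20 and P10.

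The motor neuron cultures carried a different set. Of the 5 members tested, 2 were higher and 3 lower in hMN-D6 than in hSCNPC-P10 (75.2% of all genes were called). PAX3 had 1.88, 1.69 and 1.88 CPM in hMN-D6 libraries, against 130.2, 122.2 and 123.0 CPM in hSCNPC-P10 libraries, 70.8-fold lower (-6.15 ± 0.10, edgeR adjusted p 6.95e-44). PAX7 had 0.332, 0.465 and 0.435 CPM in hMN-D6, against 15.2, 14.0 and 16.3 CPM in hSCNPC-P10, 37.0-fold lower (adjusted p 6.68e-24). PAX6 had 41.7, 47.1 and 42.7 CPM in hMN-D6, against 548.4, 521.0 and 530.2 CPM in hSCNPC-P10, 12.5-fold lower (edgeR adjusted p 7.92e-49). These progenitor genes were lower together with all 8 genes of the neural progenitor list.

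PAX2 was higher, at 29.6, 27.7 and 28.4 CPM in hMN-D6 against 13.4, 12.9 and 14.0 CPM in hSCNPC-P10 (1.04 ± 0.08, 2.06-fold, edgeR adjusted p 1.99e-17). PAX5 had 3.32, 2.75 and 3.57 CPM in hMN-D6 against 1.86, 2.00 and 2.44 CPM in hSCNPC-P10 (0.57 ± 0.21, edgeR adjusted p 0.0128), a call that was lost with DESeq2 (adjusted p 0.0549), without hSCNPC-P10 library 1 (0.0691) and without hMN-D6 library 3 (0.0579). The PAX2 mean of 28.5 CPM in hMN-D6 lay between those of P5 (50.5 CPM) and P10 (13.4 CPM). PAX8 had 3 to 6 reads per hMN-D6 library and was not tested.

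Of the interneuron genes of the PAX2 lineage 4 were higher and 4 lower of 9 tested in hMN-D6, among them SLC6A5 (2.87) and SLC32A1 (-2.47). The 8 neuron genes were all higher and none of the motor neuron genes was lower. The B-lymphocyte list, where PAX5 is a known master regulator, summed to 103.1 to 107.7 CPM in hMN-D6, almost all of it EBF1 (104.7 CPM), with MS4A1 at 0.

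PAX RNA was lower again over the following days. Between hMN-D18 and hMN-D6 all 5 members tested were lower (54.5% of all genes were called). PAX6 had 4.19, 4.06 and 4.02 CPM in hMN-D18, against 41.7, 47.1 and 42.7 CPM in hMN-D6 (-3.42 ± 0.07, edgeR adjusted p 7.996e-39). PAX3 had 0.323, 0.296 and 0.324 CPM in hMN-D18, against 1.88, 1.69 and 1.88 CPM in hMN-D6 (-2.51 ± 0.27, adjusted p 2.04e-11). PAX7 had no reads in hMN-D18 and 6 to 11 reads per library in hMN-D6, at least 9.17-fold lower against a floor of 3 counts per group (adjusted p 6.37e-07). PAX7 had no reads in hMN-D24 either, which allows up to 3 counts over the group. PAX8, not tested in these cultures, had 4 reads over the hMN-D18 libraries and 15 over the hMN-D6 libraries.

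PAX2 had 13.3, 15.3 and 14.2 CPM in hMN-D18, against 29.6, 27.7 and 28.4 CPM in hMN-D6 (-0.998 ± 0.074, edgeR adjusted p 1.20e-16). PAX5 had 1.66, 1.90 and 1.66 CPM in hMN-D18, against 3.32, 2.75 and 3.57 CPM in hMN-D6 (-0.87 ± 0.21, adjusted p 0.000393), with a lower mean at hMN-D12 (1.28 CPM) than on any other hMN day. The largest part of the PAX6 difference was present by hMN-D12, at 8.12, 7.50 and 7.15 CPM.

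Between hMN-D42 and hMN-D18 1 member was higher, 1 was lower and 3 were not called (53.0% of all genes were called). PAX2 had 4.26, 4.75 and 5.49 CPM in hMN-D42, against 13.3, 15.3 and 14.2 CPM in hMN-D18 (-1.54 ± 0.09, edgeR adjusted p 7.39e-20). PAX3 had 0.608, 1.04 and 1.09 CPM in hMN-D42, against 0.323, 0.296 and 0.324 CPM in hMN-D18 (1.56 ± 0.31, adjusted p 2.95e-05), while the hESC libraries averaged 0.993 CPM. PAX5 and PAX6 were not called (adjusted p 0.535 and 0.697), and PAX7 had 3 reads in hMN-D42 and 0 in hMN-D18 (adjusted p 0.0708). PAX8 had 13 reads over the hMN-D42 libraries and 4 over the hMN-D18 libraries, and was not tested.

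Several lists moved with PAX3 here. Of 15 dorsal genes 8 were higher and 1 lower at hMN-D42 (median log2 fold change 0.79, against 0.01 over all genes), among them ZIC5 (2.19) and ZIC2 (2.02). Of 8 neural progenitor genes 5 were higher and 1 lower (median 0.79), with NOTCH1 at 1.93 and VIM at 1.79, and SOX3 at -1.46. Of 11 neural crest genes 9 were higher and 1 lower, and their summed level was 156.8 to 169.6 CPM at hMN-D42, against 42.6 to 55.3 CPM at hMN-D18. SOX10, a gene of crest and of glial cells, averaged 46.3 CPM at hMN-D42 and 4.62 CPM at hMN-D18, and FOXD3, a gene of both the crest and the interneuron list, was higher by 4.08 on the log2 scale. The part of these lists in the PAX3 result was not tested. Among the interneuron genes of the PAX2 lineage 4 were higher and 4 lower of 9, with a median log2 fold change of 0.03, so the list did not move one way. SLC32A1 and GAD2 were among the higher (2.52 and 1.87), while PAX2 itself was lower.

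Levels of different genes were compared per kilobase of exon. The summed level of the 6 members was 0.320 CPM per kilobase in hESC, 27.2 in NeuDet-D6, 52.1 in hSCNPC-P5, 80.1 in hSCNPC-P20, 7.12 in hMN-D6 and 1.27 in hMN-D42. With lengths from the union of all annotated exons, PAX2, PAX5 and PAX8 held 77.2% ± 0.90 (SD, n = 3) of this sum at NeuDet-D1 and 91.5% ± 0.64 at NeuDet-D6, where PAX2 alone held 78.7% ± 1.58. PAX6 held 46.0% ± 1.12 at P5 and 55.9% ± 0.17 at P10, and PAX3 with PAX7 held 69.8% ± 0.34 at P20 and 81.6% ± 0.30 at P40.

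These shares depend on the lengths used, most of all on that of PAX6, whose exon union is 20639 bases and whose MANE Select transcript is 2743 bases. For PAX3 these lengths are 7942 and 3359 bases, and for PAX7 6473 and 6213 bases. The PAX3 to PAX7 ratios per kilobase above used the exon union and would be larger with MANE Select lengths. With MANE Select lengths, an alternative chosen after seeing the data, the same subgroup led in 16 of 22 groups. PAX2, PAX5 and PAX8 then held 88.8% at NeuDet-D6, PAX6 held 76.6% at P5 and 81.8% at P10, and PAX3 with PAX7 held 53.5% at P40. At P20 the leader changed to PAX6, with 61.5% against 38.4% for PAX3 with PAX7, and at hMN-D6 PAX6 held 67.0% against 30.4% for PAX2, PAX5 and PAX8, where the exon union gave 29.8% and 66.1%. The order of the stages within a gene is not touched by the length.

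**Figure D3:**
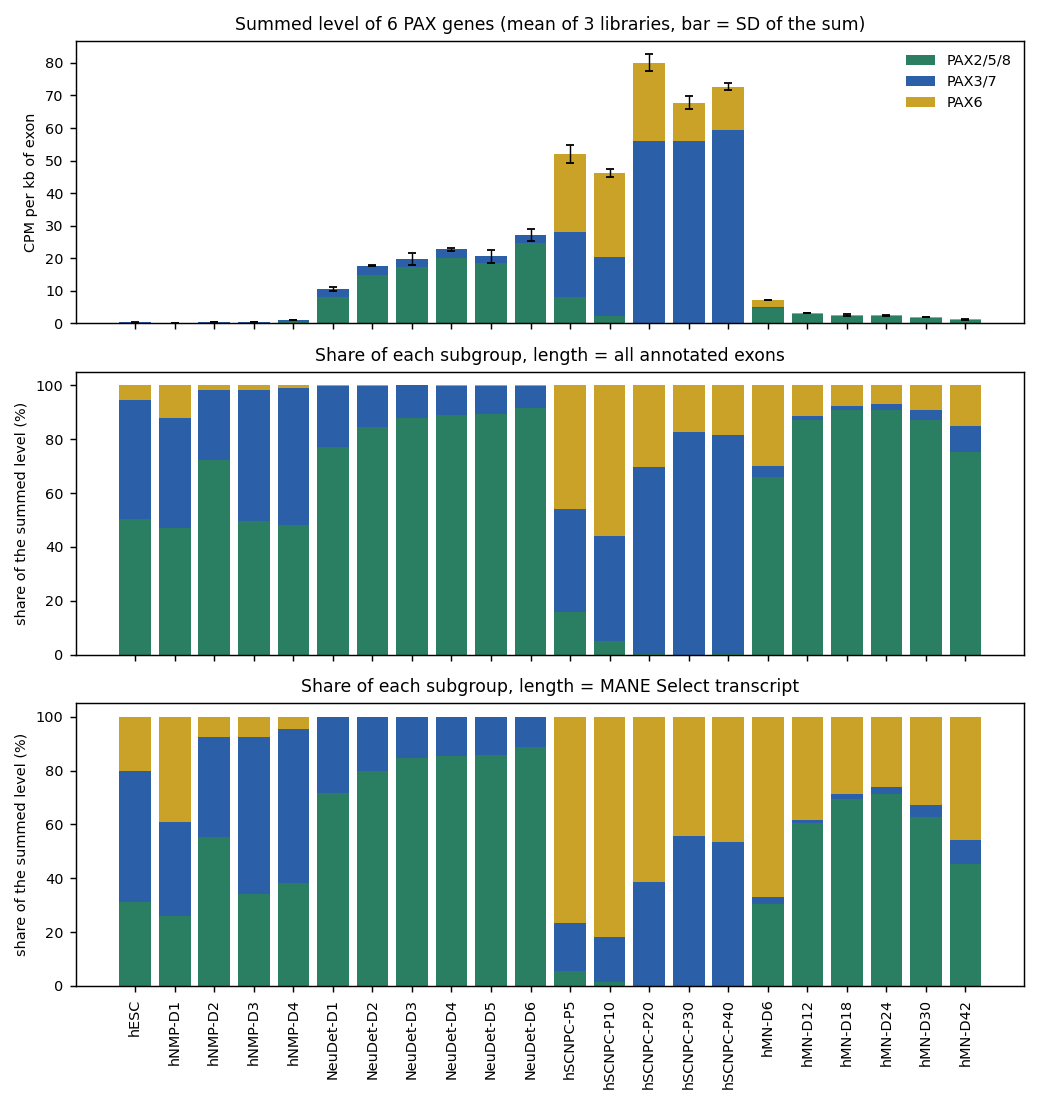
Summed level of the 6 members in CPM per kilobase (upper panel) and the shares of PAX2 with PAX5 and PAX8, of PAX3 with PAX7, and of PAX6 in it, with lengths from the exon union (middle panel) and from MANE Select transcripts (lower panel), as group means over the 22 groups. The NeuDet groups are led by PAX2, PAX5 and PAX8 under both lengths (91.5% and 88.8% at NeuDet-D6), and the leader at hSCNPC-P20 differs between them (PAX3 with PAX7 at 69.8%, or PAX6 at 61.5%).

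The opposite-strand partners had patterns of their own. PAX8-AS1 had 1.39, 2.06 and 2.54 CPM at NeuDet-D6, against 0, 0 and 0.0974 CPM at NeuDet-D1, and its mean was 0.581, 0.980 and 2.00 CPM on NeuDet days 4, 5 and 6. Before NeuDet-D4 it did not exceed 4 reads in any NeuDet library, while PAX8 already had 35 reads in NeuDet-D3 library 1. PAUPAR, a noncoding RNA transcribed near the PAX6 start, had 6.80, 7.999 and 7.23 CPM at hSCNPC-P5 against 0.0279, 0.0261 and 0 CPM at NeuDet-D6. Its mean was 7.34, 3.92, 4.83, 2.38 and 2.22 CPM at P5, P10, P20, P30 and P40. ELP4, the gene that shares the most bases with PAX6, had 9.85 to 23.6 CPM in the NeuDet libraries, where PAX6 was near 0, and 17.1 to 21.4 CPM in the hSCNPC libraries. Because shared bases cannot be assigned without strand, the share of either partner in the other's counts was not tested.

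**Figure D4:**
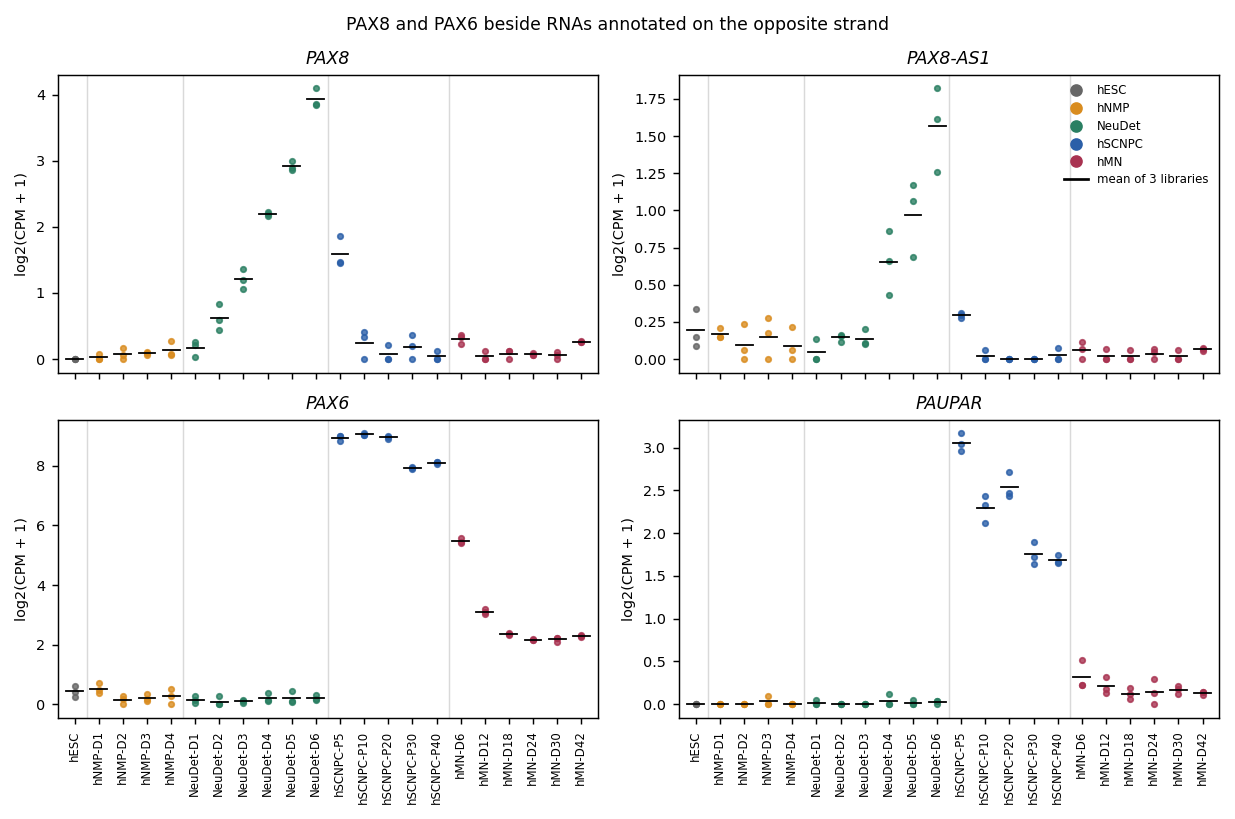
Level of PAX8 and PAX8-AS1 (upper row) and of PAX6 and PAUPAR (lower row) in every library over the 22 groups. PAX8 and PAX6 are on the left, and the noncoding RNAs are on the right. The vertical axes show log2(CPM + 1), each panel on its own scale. PAX8-AS1 reaches 2.00 CPM on average at NeuDet-D6 where PAX8 reaches 14.3 CPM, and PAUPAR is highest at hSCNPC-P5 (7.34 CPM), where PAX6 has 494.7 CPM.

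Likeness between genes was described by Pearson's r of group means on the log2(CPM + 1) scale over the 22 groups, which share one cell line and one course of stages, so the values are descriptions without a test. Among members, PAX3 and PAX7 were most alike (r = 0.98), followed by PAX2 with PAX5 (0.82), PAX5 with PAX8 (0.75) and PAX6 with PAX7 (0.75). PAX5 and PAX6 were the most opposed pair (-0.58), and PAX2 and PAX3 were near 0 (0.04).

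Among 13099 candidate genes, those most like PAX2 were HOXB9 (r = 0.981), HOXC4 (0.962) and NOG (0.951), which encodes a secreted BMP antagonist. HOXB9 is a posterior homeobox gene, and it averaged 651.4, 697.0, 3.46 and 429.9 CPM at NeuDet-D6, hSCNPC-P5, hSCNPC-P20 and hMN-D6, where PAX2 averaged 140.6, 50.5, 0.415 and 28.5 CPM. The genes most like PAX6 were BHLHE22 (0.986), FAM181B (0.974) and WNT7A (0.970). WNT7A, a WNT ligand, averaged 0, 128.9, 171.4 and 18.5 CPM in those groups. The genes most like PAX3 were GAS1 (0.985), a co-receptor of Hedgehog ligands, PAX7 (0.976) and S1PR1 (0.966), and those most like PAX7 were PAX3 (0.976), GAS1 (0.963) and the secreted WNT antagonist FRZB (0.961).

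The neighbours of PAX5 and PAX8 were less close. SPON1 (0.933), TBX15 (0.904) and ADAMTSL2 (0.890) were nearest to PAX5, and HDC (0.931), HOXC5 (0.925) and IGF2 (0.906) to PAX8. SPON1, a floor plate-derived adhesion protein, averaged 300.4 CPM at NeuDet-D6 and 1.33 CPM at hSCNPC-P20. HOXC5 and IGF2 share 67.3% and 44.4% of their exon bases with other annotated genes, so their counts are uncertain. To a smaller extent this holds for HOXC4, named above for PAX2, which shares 17.5% with genes on the same strand.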

How the data were processed

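Gene-level read counts, not normalized, were deposited by the authors in 2 tables (48 and 18 libraries), and no column was left unused. Per the study's methods, paired-end reads were trimmed with fastp, aligned to hg38 with HISAT2 2.1.0 and counted with featureCounts 1.5.3 on a GENCODE annotation. The release and the strand setting are not given in the sources used here. Counts cover whole genes, so isoforms and start sites were not told apart. Of 60603 identifiers 60261 (99.44%) had a symbol.

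Counts were scaled by TMM and tested with the quasi-likelihood F test of edgeR 4.0.16 (R 4.3.3, robust fit, filterByExpr, Benjamini-Hochberg adjustment over all genes tested, threshold 0.05). One model held the 48 libraries from hESC to hSCNPC (21597 genes) and another the hMN libraries with hSCNPC-P10 (21175 genes). The SE is the log2 fold change over the square root of F. Levels per kilobase used the exon union of each gene, and likeness used genes with a highest group mean of at least 5 CPM. The floor was 3 counts per group and covers counting error only. At totals of 14142238 to 40204753 counts, 1 read is a fraction of 1 CPM, so levels near 0 rest on single reads.

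The genes named are all 6 members in every comparison, PAX1, PAX4 and PAX9, the 3 genes most like each member, and up to 3 called genes with the largest change from each list described, except that some genes of the lists are not reported here. The members and lists were chosen with earlier results of these data known. Alternatives were RLE scaling, no filter, a filter at 1 CPM, a replicate block, DESeq2 1.42.0, fits of the 2 compared groups alone or of all 66 libraries, and leaving out each library. Deviations of same-numbered libraries from their group means had correlations over genes from -0.029 to 0.065. In 0 of 10 comparisons did every same-numbered pair exceed a correlation of 0.1. These low values do not show whether the numbers pair cultures. Summaries were computed in pandas 2.3.3 and numpy 2.4.6 under Python 3.11.15, plots were drawn with matplotlib 3.10.9, and the fits were checked on simulated data.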

Additional observations from a re-analysis of the deposited data

How the results depend on the processing

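The number of members called stayed within 1.5 times the main count in all 70 alternative fits and in all 60 fits without 1 library. With 1 library left out, the counts ran from 4 to 5 (hNMP-D4 versus hESC), 4 to 4 (NeuDet-D1 versus hNMP-D4), 3 to 4 (NeuDet-D6 versus NeuDet-D1), 6 to 6 (hSCNPC-P5 versus NeuDet-D6), 3 to 3 (P10 versus P5), 4 to 5 (P20 versus P10), 2 to 2 (P40 versus P20), 4 to 5 (hMN-D6 versus hSCNPC-P10), 5 to 5 (hMN-D18 versus hMN-D6) and 2 to 3 (hMN-D42 versus hMN-D18). With the replicate number as a block the counts were 5, 4, 4, 6, 3, 4, 2, 5, 5 and 2 in the same order, and no call of a member was lost or gained by the block.

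Of the log2 fold changes of all PAX genes, 447 kept direction and call under other settings, 4 lost the call, 1 gained one and 1 changed sign, and without 1 library 372 kept both, 13 lost the call, 2 gained one and 15 changed sign. The sign turned for uncalled values only: PAX3 between NeuDet-D6 and NeuDet-D1 was 0.0078 with all 66 libraries in one fit. With 1 library left out, the log2 fold changes that turned ran from -0.11 to 0.089 (PAX3) and -0.057 to 0.38 (PAX9) between NeuDet-D6 and NeuDet-D1, from -0.23 to 1.25 (PAX8) between NeuDet-D1 and hNMP-D4, from -0.22 to 0.0016 (PAX5) between P10 and P5, from -0.35 to 0.13 (PAX9) between P20 and P10, from -1.39 to 0.51 (PAX5), -3.45 to 2.89 (PAX8) and -0.41 to 0.075 (PAX9) between P40 and P20, and from -0.12 to 0.32 (PAX5) between hMN-D42 and hMN-D18. PAX6 between P10 and P5 was called in the fit of both groups alone (adjusted p 0.0488 by edgeR), and PAX7 between hMN-D42 and hMN-D18 was called without hMN-D42 library 3 (0.0327). The cause of these changes was not tested. Counts under 10 reads per group limit PAX8 and PAX5 in late passages and PAX7 in hMN. Group levels moved by more than 1 SD in 58 cases and stayed within it in 206 under RLE scaling or scaling by library totals alone, and 60 of 66 subgroup shares moved with MANE Select lengths. Of the 18 genes most like a member, 4 were also chosen by Spearman's rho and 7 by the 16 groups up to hSCNPC-P40.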

Other observations

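The remaining PAX genes were low throughout, but so were the members at hNMP-D4, where PAX9 averaged 3.17 CPM and PAX5, the highest member, 3.11 CPM. PAX9, known from pharyngeal and vertebral development, had a highest group mean of 3.39 CPM at hNMP-D3 and 1 highest library of 3.79 CPM, and it was called higher at hNMP-D4 than in hESC by 1.84 ± 0.27 on the log2 scale (edgeR adjusted p 4.14e-08). It was lower at NeuDet-D1 than at hNMP-D4 (-1.65 ± 0.24, adjusted p 3.65e-08) and lower in hMN-D6 than in hSCNPC-P10 (-2.50 ± 0.50, adjusted p 1.73e-05). Of its exon bases 25.4% are shared with SLC25A21 on the opposite strand. At hMN-D42 PAX9 was called higher than at hMN-D18, on 10 reads over the hMN-D42 libraries against 2 over the hMN-D18 libraries (edgeR adjusted p 0.0378), and that call was lost without a filter on low counts (0.111), with DESeq2 (0.152) and without 5 of the 6 libraries, 1 at a time (0.0529 to 0.161). PAX1, a gene of the sclerotome, had at most 0.358 CPM in any library and PAX4, a gene of pancreatic islets, at most 0.138 CPM.

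The glutamate decarboxylase gene GAD1, which makes the transmitter GABA and is used by interneurons that carry PAX2, was already 31.0 CPM at hNMP-D4, 52.1 CPM at NeuDet-D1 and 59.3 CPM at NeuDet-D6, stages at which LHX1, another gene of those interneurons, had at most 0.0140 CPM on average. GATA3, a gene of the kidney list that ventral interneurons also use, averaged 13.5 CPM at hMN-D42, against 0.109 CPM at hMN-D6.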
